A study of Mus musculus with 6 samples.

Results

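Sterol synthesis was followed through 8 genes of the mevalonate pathway and its control, Hmgcs1, Idi1, Fdps, Fdft1, Sqle, Cyp51, Insig1 and Srebf2, out of 18430 genes with at least 1 count. They were chosen by gene symbol, and for each gene the transcript with the highest mean count was used. All 8 passed the filter on low counts, 7 of them in libraries of both groups and Sqle in control libraries only. None of the 8 takes up sterol from outside the cell, so the uptake genes are described as a separate list. Bone marrow-derived macrophages (BMDMs) came from C57BL/6J mice of 6 to 8 weeks. They were differentiated for 10 days with medium conditioned by L929 cells and treated for 4 hrs with 100 ng/ml of lipopolysaccharide (LPS), the bacterial ligand of TLR4. The 3 control cultures were hnRNPD fl/fl. The 3 M-Δx3,4 cultures were LysCre+ hnRNPD fl/fl, in which a Cre recombinase driven by the lysozyme M locus removes exons 3 and 4 of hnRNPD, the gene of the RNA-binding AUF1 proteins, in myeloid cells. No culture was left without LPS, so the response to LPS itself was not measured. The labels do not say whether the 3 cultures of a group came from separate mice, so the p-values measure the spread between these cultures, which may be technical.

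Cells make cholesterol from acetyl-CoA through mevalonate, isoprenoids and squalene. When sterol in the endoplasmic reticulum is low, SCAP carries SREBP2, the product of Srebf2, to the Golgi apparatus, where it is cleaved and released to switch on genes of sterol synthesis and uptake. INSIG proteins hold SCAP back when sterol is plentiful, and Insig1 is itself a target of SREBP2. In macrophages the pathway is tied to the inflammatory response, and Ch25h, induced by interferon, makes 25-hydroxycholesterol, which restrains SREBP2.

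The RNA was read from its 3′ ends and counted on the 3′ UTR regions of each transcript, which the authors had extended beyond the annotated 3′ UTR. Added up over all transcripts, the counts came to between 5852374 and 9008878 per library. Reads on regions shared by several transcripts are in that sum more than once. With 1 transcript per gene the sum was 2503125 to 3846215. A normalized count is a count divided by a library factor, which ran from 0.86 to 1.31. The hnRNPD transcript ENSMUST00000072750 had 177.8, 104.2 and 69.6 normalized counts in control replicates 1, 2 and 3 and 52.8, 12.6 and 16.0 in the M-Δx3,4 replicates, with no overlap (log2 fold change -2.11, edgeR p = 0.00144, adjusted p = 0.984, exact permutation p = 0.1). The 8 macrophage markers summed to between 5413.5 and 7072.1 normalized counts in every library. Of them 1 passed the test, Lyz2, which was lower in M-Δx3,4 (log2 fold change -0.91, edgeR adjusted p = 0.984). It was also the 1 marker of the 8 with no overlap. Over all transcripts tested, 4.13% passed and 8.88% had no overlap. Lyz2 is the lysozyme M gene, whose locus drives the Cre in the M-Δx3,4 cultures alone. Whether the Cre bears on Lyz2 was not tested. Of the other markers of cell types, only the hepatocyte genes Alb and Apoa1 passed, while the T cell genes Cd3e, Cd3g and Trac had 0 counts in every library and Cd3d, the other T cell marker, had 5.8 to 37.2 normalized counts. Control replicate 3 stood apart in holding the 3 hepatocyte transcripts Alb (264.5), Apoa1 (40.6) and Ttr (12.8), which summed to at most 1.5 in each of the other libraries. Control replicates 1 and 3 also differed in base composition, as described with the members' values.

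No sterol gene passed the test between control and M-Δx3,4 BMDMs. By edgeR's quasi-likelihood test, 0 of the 8 were below 0.05 before adjustment, against 4.13% of all 32475 transcripts tested (1.59% higher and 2.54% lower in M-Δx3,4). When a log2 fold change of 1 or more in either direction was also required, 0 of 8 passed, against 3.3% of all transcripts. In 0 of 8 did the control and M-Δx3,4 libraries fail to overlap, against 8.88% of all transcripts. The log2 fold change was above 0 for 3 genes and below 0 for 5, with a median of -0.04 beside a median of -0.03 over all transcripts tested. Without Sqle, 3 were above and 4 below 0, with a median of -0.02. In these bulk libraries fewer cells that use a gene and less RNA per cell cannot be told apart. No adjusted p of any transcript was below 0.824. With 3 libraries a group, the smallest p of the two-sided exact permutation test is 0.1, and the 8 genes had between 0.2 and 0.9. The 95% intervals used a standard error worked back from the fold change and F statistic of the fit. They reached a log2 fold change of 1 or -1 in all genes except Cyp51 and Srebf2. The other 6 genes could thus have changed by that much without it being detectable at this depth and spread. No interval allows for the GC trend described below, and with that trend removed Cyp51 and Srebf2 changed sign.

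**Figure D1:**
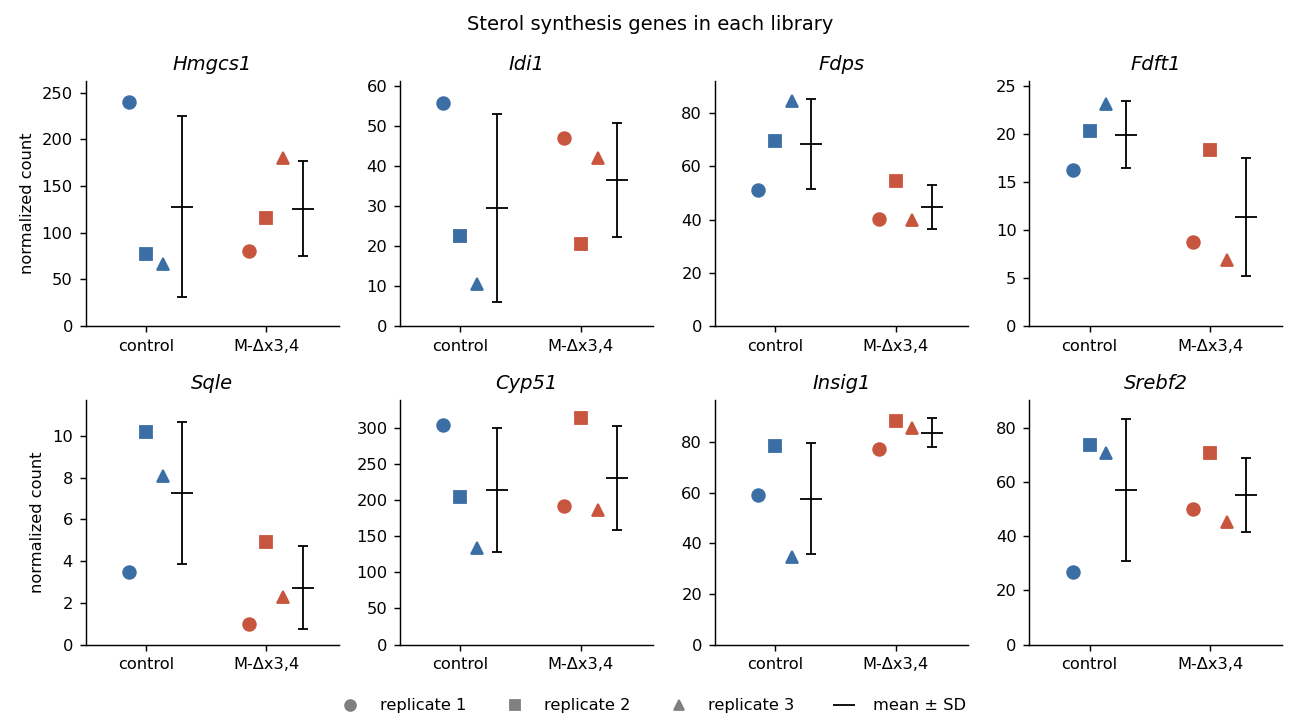
Normalized counts of the 8 sterol genes (y axis, linear from 0) in each control (blue) and M-Δx3,4 (red) library, with symbols for the replicate number and a bar for the mean ± SD of 3 libraries. The groups overlap in every panel, and control replicate 1 (blue circle) is the highest library for Hmgcs1 and Idi1 and the lowest for Srebf2.

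The pathway begins with Hmgcs1, the cytosolic synthase that makes HMG-CoA, the precursor of mevalonate. Its transcript ENSMUST00000179869 was counted on chr13:119706479-119708331 of mm10 (plus strand), and a second transcript, ENSMUST00000224188, held identical counts. Hmgcs1 had 239.4, 77.6 and 66.1 normalized counts in control replicates 1, 2 and 3, and 80.2, 115.6 and 180.4 in M-Δx3,4 replicates 1, 2 and 3. All M-Δx3,4 libraries lay inside the control range, whose upper end was control replicate 1 alone. The means were 127.7 ± 96.9 and 125.4 ± 50.8 (SD, n = 3), a log2 fold change of -0.02 (standard error 0.48, 95% interval -1.05 to 1.01, edgeR p = 0.963, adjusted p = 0.998, exact permutation p = 0.8). Leaving 1 library out gave values from -0.38, when M-Δx3,4 replicate 3 was left out, to 0.81, when control replicate 1 was.

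Idi1, the isomerase that interconverts the 5-carbon isoprenoid units, was counted on chr13:8890636-8892700 (plus strand, ENSMUST00000169314). It had 55.8, 22.5 and 10.4 normalized counts in the control and 47.0, 20.4 and 42.0 in the M-Δx3,4 libraries. The control libraries spanned more than the M-Δx3,4 libraries, which again lay inside the control range. The means were 29.6 ± 23.5 and 36.5 ± 14.1 (SD, n = 3), a log2 fold change of 0.31 (standard error 0.55, 95% interval -0.87 to 1.48, edgeR p = 0.586, adjusted p = 0.986, exact permutation p = 0.7). Without control replicate 1 it was 1.13 and passed the unadjusted threshold of 0.05 (edgeR adjusted p = 0.319), the only sterol gene to pass in any setting tried. In that setting 14.8% of 30963 transcripts passed, 8.17% higher in M-Δx3,4, so 1 of 8 is near the background. Without control replicate 3 the log2 fold change of Idi1 was -0.08.

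Fdps joins isoprenoid units into farnesyl diphosphate, the branch point towards sterols, ubiquinone and protein prenylation. The transcript with the highest count, ENSMUST00000196254, has no annotated 3′ UTR. It was counted on 249 bases, chr3:89093500-89093748 (minus strand), which come from the extension of the regions beyond the annotated 3′ UTR. Normalized counts were 51.1, 69.5 and 84.7 in control and 40.1, 54.4 and 39.7 in M-Δx3,4 libraries. Only M-Δx3,4 replicate 2 reached the control range, and it exceeded control replicate 1 alone. The means were 68.4 ± 16.8 and 44.7 ± 8.3 (SD, n = 3), a log2 fold change of -0.61 (standard error 0.39, 95% interval -1.44 to 0.21, edgeR p = 0.135, adjusted p = 0.984, exact permutation p = 0.2). The overlapping region of the longer transcript ENSMUST00000081848, chr3:89093339-89093642, gave -0.46 with no unadjusted p under 0.05, and because the regions overlap these are not independent values. The direction was the same in each fit that left out a library, from -0.78 to -0.42.

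Fdft1, squalene synthase, commits farnesyl diphosphate to sterols. On chr14:63144904-63146749 (minus strand, ENSMUST00000054963, with the same counts in 2 further transcripts) it had 16.3, 20.4 and 23.2 normalized counts in control and 8.8, 18.4 and 6.9 in M-Δx3,4 libraries. As for Fdps, M-Δx3,4 replicate 2 lay above control replicate 1 and the other two lay below all controls. The means were 20.0 ± 3.5 and 11.4 ± 6.2 (SD, n = 3), and the log2 fold change was -0.82 (standard error 0.53, 95% interval -1.96 to 0.32, edgeR p = 0.147, adjusted p = 0.984, exact permutation p = 0.2). Leaving out that library gave -1.34, and leaving out M-Δx3,4 replicate 3 gave -0.55, neither with an unadjusted p under 0.05.

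Sqle, squalene monooxygenase, makes the first oxygenated sterol precursor and is a rate-limiting step. It was at the edge of detection and entered the test through control replicates 2 and 3, since the highest M-Δx3,4 library (4.86) was below the filter of 4.891 normalized counts, so its direction is partly set by the filter. On chr15:59330918-59331441 (plus strand, ENSMUST00000022977) it had 3, 10 and 7 reads in the control and 1, 5 and 3 reads in the M-Δx3,4 libraries, or 3.5, 10.2, 8.1, 1.0, 4.9 and 2.3 normalized counts. M-Δx3,4 replicate 2 again lay above control replicate 1. The means were 7.3 ± 3.4 and 2.7 ± 2.0 normalized counts (SD, n = 3). The log2 fold change of -1.40 was the most negative of the 8 and had the widest error (standard error 0.92, 95% interval -3.36 to 0.57, edgeR p = 0.15, adjusted p = 0.984, exact permutation p = 0.2). At this depth the range without 1 library was -2.05 to -1.03.

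Cyp51, the lanosterol demethylase, acts late in the pathway. On chr5:4080896-4083124 (minus strand, ENSMUST00000001507) the control libraries had 304.5, 205.4 and 133.4 and the M-Δx3,4 libraries 192.7, 314.6 and 187.2 normalized counts. The libraries of the groups were interleaved, with M-Δx3,4 replicate 2 just above control replicate 1. The means were 214.4 ± 85.9 and 231.5 ± 72.0 (SD, n = 3), a log2 fold change of 0.11 (standard error 0.38, 95% interval -0.69 to 0.91, edgeR p = 0.774, adjusted p = 0.995, exact permutation p = 0.9). Its sign was not stable to a single library, running from -0.18 without M-Δx3,4 replicate 2 to 0.45 without control replicate 1.

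Among the regulators, Insig1, the sterol-sensitive anchor of SCAP, was counted on chr5:28076821-28078911 (plus strand, ENSMUST00000059155), with 59.3, 78.7 and 34.8 normalized counts in control and 77.3, 88.4 and 85.6 in M-Δx3,4 libraries. The M-Δx3,4 libraries were close together, and only control replicate 2 reached them. The means were 57.6 ± 22.0 and 83.7 ± 5.8 (SD, n = 3), a log2 fold change of 0.54 (standard error 0.39, 95% interval -0.30 to 1.38, edgeR p = 0.193, adjusted p = 0.984, exact permutation p = 0.2). Its sign was the same in each fit that left out a library, with 0.29 as the lowest when control replicate 3 was left out and 0.83 as the highest when control replicate 2 was.

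Srebf2 encodes SREBP2, the transcription factor of the enzyme genes and Insig1. On chr15:82203918-82205628 (plus strand, ENSMUST00000023100) it had 26.7, 73.6 and 70.8 normalized counts in control and 49.9, 70.9 and 45.1 in M-Δx3,4 libraries. Control replicate 1 was the low library, and all M-Δx3,4 libraries lay inside the control range. The log2 fold change was -0.05 (standard error 0.44, 95% interval -0.99 to 0.89, edgeR p = 0.914, adjusted p = 0.998, exact permutation p = 0.9), from means of 57.0 ± 26.3 and 55.3 ± 13.7 (SD, n = 3). Without control replicate 1 it was -0.39 and without control replicate 2 it was 0.18.

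**Figure D2:**
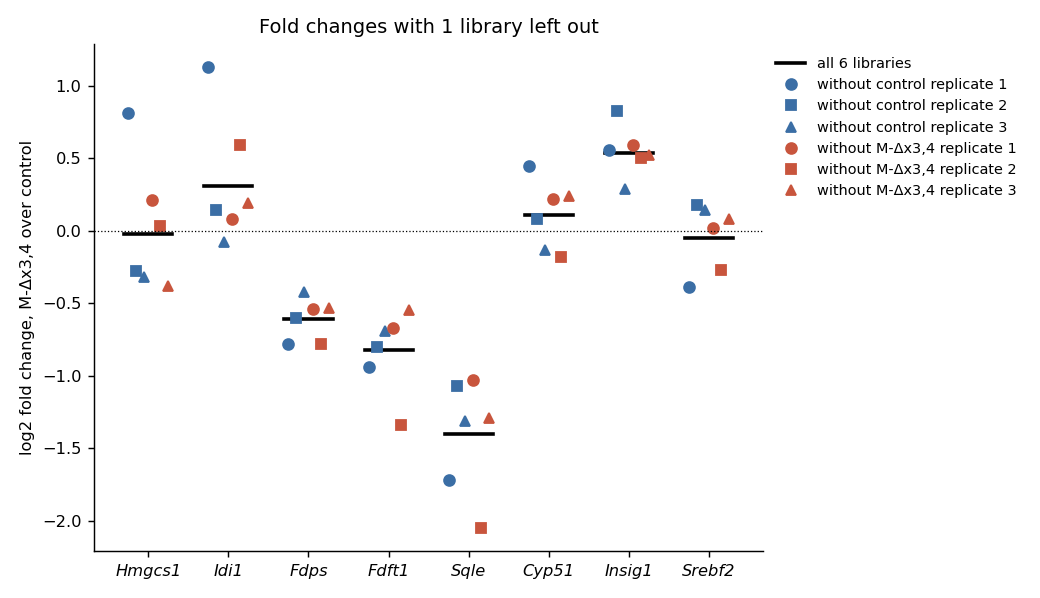
Log2 fold change of each sterol gene, M-Δx3,4 over control (y axis), with all 6 libraries (black line) and with 1 library left out (symbols, blue for a control and red for an M-Δx3,4 library). Fdps, Fdft1, Sqle and Insig1 stay on their side of 0 and the other 4 genes cross it, with Hmgcs1 at 0.81 and Idi1 at 1.13 without control replicate 1.

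Levels between genes were compared on the authors' TPM scale, which divides by the length of the counted region. The order over the 6 libraries was Fdps (16.4 ± 4.38 TPM, SD over 6 libraries), Cyp51 (7.33 ± 2.45), Hmgcs1 (5.06 ± 2.98), Insig1 (2.47 ± 0.719), Srebf2 (2.37 ± 0.692), Idi1 (1.20 ± 0.686), Sqle (0.664 ± 0.441) and Fdft1 (0.615 ± 0.238). Fdps was above Cyp51 in 6 of 6 libraries with no overlap of their ranges, on a region of 249 bases against 2229 for Cyp51. All the other neighbours in the order overlapped in range. The reads of these libraries come from transcript ends, so dividing by region length raises genes with short regions, of which Fdps has the shortest. On normalized counts, which are not divided by length, the order was Cyp51 (223.0, mean of 6 libraries), Hmgcs1 (126.6), Insig1 (70.7), Fdps (56.6), Srebf2 (56.2), Idi1 (33.0), Fdft1 (15.7) and Sqle (5.0). The place of Fdps above Cyp51 therefore holds on the TPM scale and turns round in counts.

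The control libraries differed from each other in opposite directions in different sterol genes. Between control replicates 1 and 3 the log2 difference, on normalized counts plus 1, was 2.31 for Idi1, 1.84 for Hmgcs1, 1.18 for Cyp51 and 0.75 for Insig1. It was -1.37 for Srebf2, -1.02 for Sqle, -0.72 for Fdps and -0.49 for Fdft1. The genes of the first set end in transcript sequence poor in G and C: their last 500 bases hold 33.2% GC in Idi1, 34.0% in Cyp51, 34.4% in Insig1 and 34.8% in Hmgcs1. In the second set it was 42.2% in Sqle, 51.0% in Fdft1, 52.8% in Fdps and 54.8% in Srebf2. The median was 44.8% over the 10643 tested genes with an annotated transcript of that length. The Fdps transcript used has no annotated 3′ UTR, so its last 500 bases may stop short of the end of the RNA.

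The class medians over all genes with enough counts followed the same order, with single genes on either side. Idi1 (mean 33.0 normalized counts), Fdft1 (15.7) and Sqle (5.0) were too low to be among those genes. In 4238 genes whose mean exceeded 50 normalized counts, the median log2 difference between control replicates 1 and 3 was 1.09 in genes under 35% GC and -1.13 in genes of 55% or more. The median log2 fold change of M-Δx3,4 over control ran along it, from 0.28 to -0.36. With a GC trend taken out of each library, an alternative chosen after seeing the data, the log2 fold changes were -0.17 for Hmgcs1, 0.13 for Idi1, -0.43 for Fdps, -0.70 for Fdft1, -1.55 for Sqle, -0.09 for Cyp51, 0.23 for Insig1 and 0.21 for Srebf2. None of the 8 passed 0.05 in that fit, and Cyp51 and Srebf2 changed sign. What made the control libraries differ was not tested.

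**Figure D3:**
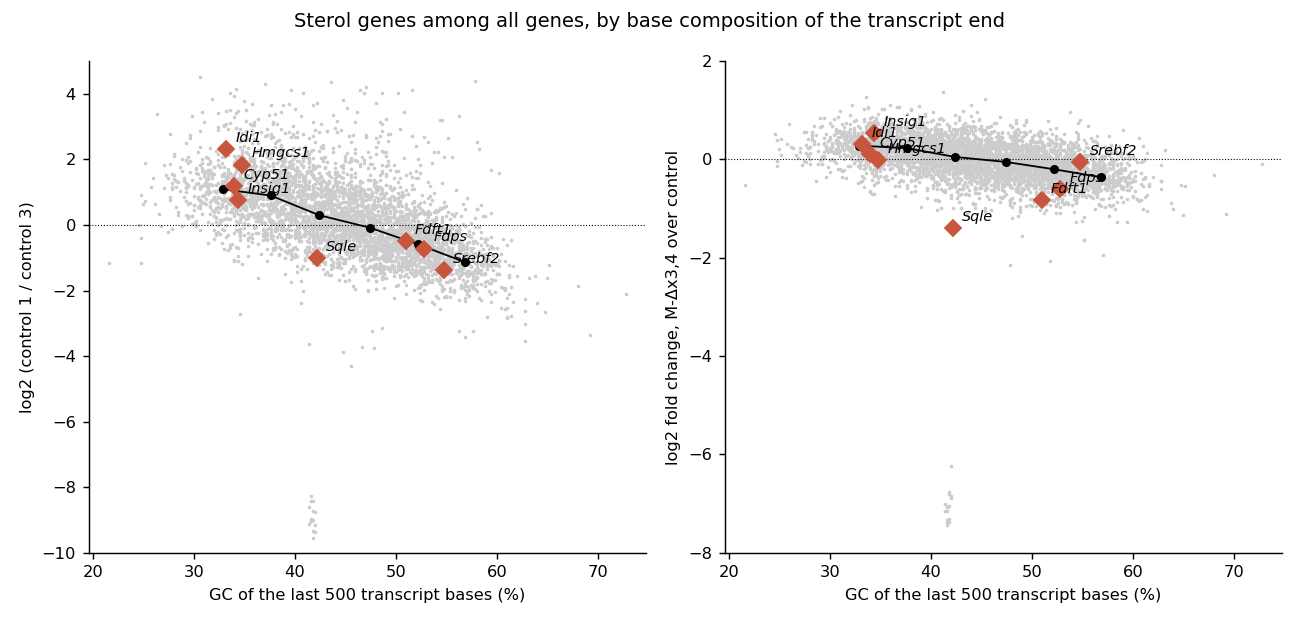
GC content of the last 500 transcript bases (x axis, %) against the log2 ratio of control replicate 1 to control replicate 3 (left) and the log2 fold change of M-Δx3,4 over control (right). Grey points are the 4238 genes above 50 normalized counts, black points are medians of 6 GC classes, and red diamonds are the 8 sterol genes. The medians run from 1.09 to -1.13 on the left and from 0.28 to -0.36 on the right, and Sqle lies below the medians in both panels.

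AUF1 proteins bind AU-rich elements, so the pentamer ATTTA and the nonamer TTATTTATT were searched on the transcript strand of the annotated 3′ UTRs. The nonamer was in 0 of the 7 annotated 3′ UTRs (the Fdps transcript has none). In the last 500 bases it was in none of the 8 genes, against 2.47% of the 10643 tested genes with a transcript of that length. ATTTA occurred 6 times in the 3′ UTR of Idi1, 4 times each in Hmgcs1 and Insig1, 3 times each in Cyp51 and Fdft1, 2 times in Srebf2 and not at all in Sqle. Within the last 500 bases 5 of the 8 genes held ATTTA, against 49.5% of the same 10643 genes. For Fdps, which did not hold it, these are the last bases of a transcript without a 3′ UTR. The matches in those windows of Idi1, Cyp51, Fdft1 and Srebf2 are shown with 12 bases on each side, ATTTA in capitals. The match in Hmgcs1 is not shown. The stretches shown lie on mm10 at chr13:8892294-8892322 and chr13:8892327-8892355 for Idi1, chr5:4081487-4081515 for Cyp51 (minus strand), chr14:63145520-63145548 for Fdft1 (minus strand) and chr15:82205177-82205205 for Srebf2.
Idi1, first: tctgaacagttgATTTAtcattggggata
Idi1, second: tatgttgcaagaATTTAttgaaaattaaa
Cyp51: ttatctttggttATTTAggtaagtcactc
Fdft1: atgtagccttgaATTTAatggtgatccca
Srebf2: accatcactgtaATTTAtggcccccgccg

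RefSeq promoters of 300 bases around the start (GRCm38.p6) were matched for 5 of the 8, Hmgcs1, Idi1, Cyp51, Insig1 and Srebf2. The sterol regulatory element TCACNCCAC, searched on both strands, is in 1.24% of 32851 promoters. Of the 5 it was found in Hmgcs1 alone, within the window chr13:119690204-119690232, where the element begins 137 bases before the start. Elements that differ from this sequence or lie outside the 300 bases were not searched, so the other promoters may hold such elements. CCAAT, the NF-Y motif, is in 37.4% of promoters and GGGCGG, the SP1 motif, in 35.7%, and each was found on at least 1 strand in all 5. The Hmgcs1 window with the element in capitals, and its nearest upstream CCAAT on the opposite strand (ATTGG in capitals), are shown because SREBP2 binds beside NF-Y at many of its targets. The CCAAT window is chr13:119690165-119690189, and its motif begins 176 bases before the start.
Hmgcs1, sterol regulatory element: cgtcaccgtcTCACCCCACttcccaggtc
Hmgcs1, CCAAT: ccgtcccgccATTGGcaggcttgtt

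Of the other genes of the pathway, Scd1 alone passed the test. Of 46 further genes in 5 lists, 43 were tested (the other 3 were too low), and 21 were higher and 22 lower in M-Δx3,4. Below 0.05 before adjustment was 1 of the 43, against 4.13% of all transcripts tested. The same share is the background for each list that follows. Among the 16 other enzymes of sterol synthesis 0 passed, with a median log2 fold change of -0.10. Lss, which cyclizes squalene epoxide to lanosterol, was at or under 6.8 normalized counts in every library (log2 fold change 0.48, edgeR adjusted p = 0.986).

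The groups of Pmvk and Lbr did not overlap, 2 of the 43 tested. Pmvk, phosphomevalonate kinase, had 104.6, 114.4 and 138.1 normalized counts in control and 99.8, 86.4 and 91.7 in M-Δx3,4 libraries (n = 3 each), with -0.36 as log2 fold change (edgeR adjusted p = 0.984). Lbr, a sterol reductase that is also the lamin B receptor of the nuclear envelope, had 17.4, 14.3 and 9.3 in control and 20.5, 21.4 and 18.3 in M-Δx3,4 libraries, with 0.55 as log2 fold change (edgeR adjusted p = 0.984). Neither passed the test. The share over all transcripts was 8.88%, in which a gene with several transcripts counts more than once, so 2 of 43 is not read as a difference.

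Of the 5 genes that control SREBP, 0 passed, with a median log2 fold change of -0.42. Scap, the escort of SREBP2, had 65.1, 51.1 and 121.8 normalized counts in control and 33.3, 61.2 and 44.3 in M-Δx3,4 libraries (log2 fold change -0.78, edgeR adjusted p = 0.984). M-Δx3,4 replicate 2 lay above control replicate 2, and without control replicate 3 the value was -0.31. Insig2, the second INSIG, was at 0.45 (edgeR adjusted p = 0.984), with 43.0 in control replicate 1 against 7.2 and 10.4 in the other controls, and reached 1.64 without that library, where it passed the unadjusted threshold (edgeR adjusted p = 0.21), as did the 14.8% of all transcripts given for Idi1. Srebf1, which drives fatty acid synthesis, was at -0.42 (edgeR adjusted p = 0.984).

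Sterol uptake and trafficking had 0 of 8 tested genes past the test and a median of 0.00. Among the 5 genes of oxysterols and sterol esters 0 passed, with a median of 0.23, and Ch25h, the 25-hydroxylase, was at -0.28 (edgeR adjusted p = 0.984).

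Fatty acid synthesis held the 1 gene that passed. Scd1, the stearoyl-CoA desaturase, had 2.3, 0.0 and 37.1 normalized counts in control and 2.9, 1.9 and 1.5 in M-Δx3,4 libraries, and a fitted log2 fold change of -2.56 (edgeR p = 0.0482, adjusted p = 0.984, exact permutation p = 0.8). The count is that of control replicate 3, the library that also held 317.9 normalized counts of the 3 hepatocyte markers, against 0.0 in the other controls. Whether these liver transcripts bear on Scd1 was not tested, and without control replicate 3 Scd1 was too low to test. The 9 tested genes of the list had a median of 0.13.

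**Figure D4:**
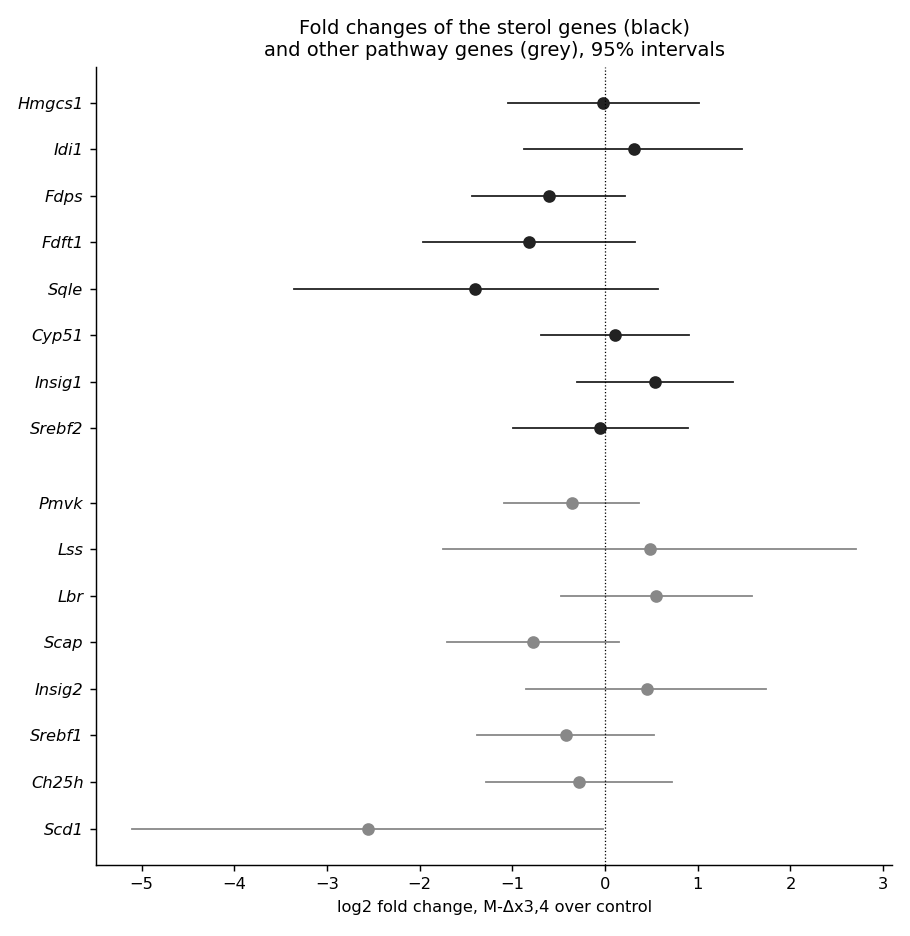
Log2 fold change of M-Δx3,4 over control (x axis) with its 95% interval for the 8 sterol genes (black) and 8 other genes of the pathway lists (grey). The intervals of all genes except Scd1 include 0, and Scd1 rests on control replicate 3.

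The mean profile of the 8 genes across the libraries was nearly level, at 0.16, 0.21 and -0.15 in control and -0.29, 0.18 and -0.11 in M-Δx3,4 replicates 1, 2 and 3, as log2 deviations from each gene's own mean. Single members lay 0.325 (Cyp51) to 0.838 (Idi1) from that mean profile, as the root mean square over the 6 libraries. Of 4723 genes compared, all averaging more than 50 normalized counts, the 5 nearest to it were Nfe2l1 (0.041), Usf2 (0.081), Cmas (0.082), Arih2 (0.093) and Tstd2 (0.097). Summed over the 8, the libraries had 756.6, 557.8 and 431.6 normalized counts in control and 496.9, 687.5 and 589.2 in M-Δx3,4 BMDMs, with overlap.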

How the data were processed

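Reads were made with the QuantSeq 3′ end kit. The authors aligned them to mm10 with TopHat2 2.1.1 and Bowtie2 2.3.2 (versions per the submitters' processing notes) and deposited raw counts per 3′ UTR region, with TPM values per region that the authors had computed with metaseqR2. Their columns of fold changes and p-values were not used, nor were 18 further columns of per-sample values. Region counts were added up within each transcript (142567 transcripts, 52013 with a count). Library factors were the median of ratios (RLE). A transcript was tested if any library exceeded 4.891, the median of all normalized counts (32475 transcripts). The quasi-likelihood test came from edgeR (version 4.0.16, run under R version 4.3.3), p-values were adjusted by Benjamini-Hochberg over all of them, and the fit was tested on simulated data. Exact permutation tests were two-sided. Alternatives were TMM factors, library totals, DESeq2 1.42.0, limma-voom (limma 3.58.1), other filters, other ways to combine transcripts, a replicate block, a threshold of 0.01, each library left out and a GC trend removed from each library (29382 transcripts, lowess span 0.3). The named genes were the 8 members, pathway genes past the threshold of 0.05 or with no overlap between groups, further pathway genes chosen whatever their values (Srebf1, Insig2, Scap, Ch25h and Lss, with others not reported here), hnRNPD and the 5 genes most like the members. The members and lists were chosen with earlier results of these data known. The marker lists of neutrophils, B cells, dendritic cells and fibroblasts summed to 387.2 to 728.3, 50.4 to 106.7, 1.0 to 10.2 and 1.9 to 34.9 normalized counts per library.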

Additional observations from a re-analysis of the deposited data

How the results depend on the processing

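Over the 8 sterol genes, 109 of 126 values under the alternatives kept their direction and their side of the threshold, 16 had the opposite sign and 1 passed the threshold of 0.05. The number of sterol genes past it was 0 in each setting but the one without control replicate 1 (range 0 to 1 over the left-out libraries, also with the fold threshold added), where it was Idi1. Hmgcs1 changed sign to 0.16 with limma-voom and to 0.17 with the replicate block, and to 0.81, 0.21 and 0.03 without control replicate 1, M-Δx3,4 replicate 1 and M-Δx3,4 replicate 2 (left-out range -0.38 to 0.81). Idi1 was at -0.08 without control replicate 3 (-0.08 to 1.13). Cyp51 was at -0.09 with the GC trend removed and at -0.13 and -0.18 without control replicate 3 and M-Δx3,4 replicate 2 (-0.18 to 0.45). Srebf2 was at 0.04 with limma-voom, 0.04 with the replicate block and 0.21 with the GC trend removed, and at 0.18, 0.14, 0.02 and 0.08 without control replicates 2 and 3 and M-Δx3,4 replicates 1 and 3 (-0.39 to 0.18). Ch25h ran from -0.62 to 0.28, the last without control replicate 3. The 1 pathway gene past the threshold, Scd1, became 0 with limma-voom, edgeR's filterByExpr, 1 transcript per gene, distinct regions summed, the replicate block and a p threshold of 0.01, and 0 to 4 with a library left out. The 4 were Insig2, Mbtps2, Soat1 and Scd1, without control replicate 1, where 14.8% of all transcripts passed; Mbtps2 and Soat1 are named after their values were seen. The causes were not tested. The labels do not say whether same-numbered libraries were prepared together. The deviations of same-numbered libraries correlated at -0.11, 0.19 and -0.15, which cannot decide it with 3 libraries a group. The replicate block changed no other call. Counts as low as those of Sqle, 1 to 10 reads per library, limit what could be detected.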
